A study of Homo sapiens with 6 samples.

Results

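The histatins HTN1 and HTN3 and 8 neighbouring genes for secreted proteins, STATH, CSN1S1, CSN2, CSN3, ODAM, MUC7, SMR3A and SMR3B, form a saliva and milk protein cluster on the long arm of chromosome 4. These 10 genes, of 57820 in the count table, were taken by name. The set was chosen by the rise of the HTN1 and HTN3 counts in ARID1A-KO over WT cells. Their differences between genotypes are therefore descriptions and carry no test. RNA-seq was measured in 3 WT and 3 ARID1A-KO samples of AID-DIvA cells, an osteosarcoma line derived from U2OS that carries an inducible, auxin-degradable AsiSI nuclease. All 6 samples were labelled untreated, so the nuclease was not induced in either genotype. ARID1A, a DNA-binding subunit of SWI/SNF chromatin remodelling complexes, had been disrupted with CRISPR-Cas9, and which knockout clone was sequenced is not given in the sources used here. Samples are named by genotype and by the replicate numbers 3, 4 and 5 of their labels. The study describes its replicates as independent experiments, and the labels add only their numbers.

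Histatins are small histidine-rich peptides of human saliva that act against yeasts and bacteria, and statherin, the product of STATH, keeps salivary calcium phosphate in solution. Caseins carry calcium in milk, and MUC7 is a salivary mucin. Most of these genes belong to the secretory calcium-binding phosphoprotein (SCPP) family, which arose by gene duplication and also holds proteins of enamel, dentin and bone. The histatins are known from salivary glands and not as products of bone cells.

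The 2 histatin genes lie side by side on the forward strand, next to STATH. In the coordinates of the deposited tables (GRCh37), STATH spans chr4:70861647-70868287, HTN3 spans chr4:70894130-70902255 and HTN1 spans chr4:70916119-70924562. The gaps between them are 25842 bp from STATH to HTN3 and 13863 bp from HTN3 to HTN1, and the next member on the far side, ODAM, starts 137650 bp beyond HTN1. The 250 bases before the RefSeq start site are shown because the 3 genes sit together and resemble one another there, while only 2 of them were read at more than a few counts. The sequences are from RefSeq, each matched at 1 place on chromosome 4 of GRCh37 (chr4:70861433-70861682 for STATH, chr4:70893926-70894175 for HTN3 and chr4:70915905-70916154 for HTN1, forward strand), and the capitals mark the TATA-like run TTTAAATA.
STATH: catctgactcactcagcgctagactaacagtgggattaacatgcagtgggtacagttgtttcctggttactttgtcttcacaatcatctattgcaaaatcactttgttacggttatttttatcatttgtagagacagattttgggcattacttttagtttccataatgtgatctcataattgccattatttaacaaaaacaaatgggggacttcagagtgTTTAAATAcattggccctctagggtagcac
HTN3: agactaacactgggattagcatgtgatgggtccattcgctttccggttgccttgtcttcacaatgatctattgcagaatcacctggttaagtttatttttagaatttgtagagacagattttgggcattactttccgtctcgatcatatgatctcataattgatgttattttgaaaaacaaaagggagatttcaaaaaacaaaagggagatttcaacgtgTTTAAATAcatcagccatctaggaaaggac
HTN1: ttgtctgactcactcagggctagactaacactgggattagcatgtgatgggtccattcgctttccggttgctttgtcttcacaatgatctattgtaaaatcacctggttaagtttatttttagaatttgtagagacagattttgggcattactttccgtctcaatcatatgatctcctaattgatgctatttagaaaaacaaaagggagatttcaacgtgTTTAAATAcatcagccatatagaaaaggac

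TTTAAATA stood at the same place in all 3 windows, from base -30 to base -23 counted back from the RefSeq start site. That site lies inside the gene as the deposited tables give it, 36 bp from the gene's first base for STATH and HTN1 and 46 bp for HTN3, so by the spans printed above the run falls within each gene. Of 35116 RefSeq promoters searched on both strands over the same length, 1.79% held it, and of the 9 members with an entry 5 did (STATH, HTN3, HTN1, CSN1S1 and 1 of the 3 start sites of MUC7). The AP-1 motif TGANTCA, found in 6.57% of promoters, was present from -246 to -240 in STATH and from -245 to -239 in HTN1. Its letters were not in the HTN3 window. In HTN1, however, the bases that match the start of the HTN3 window come after the motif. The HTN3 window thus stops short of the matching stretch, which was not searched. Neither the STAT motif TTCNNNGAA (6.57% of promoters) nor the RUNX motif TGTGGT (11.0%) was present in the 3 windows. The HTN3 and HTN1 windows were identical at 220 of 229 aligned bases (96.1%), against 82.2% for STATH with HTN3 and 80.7% for STATH with HTN1. These shares leave out bases without a partner in the alignment. Just before the TTTAAATA run, the HTN3 window repeats a stretch that the HTN1 window holds only once.

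The coding sequences of the histatins are shown because reads of such similar genes could be assigned to the wrong copy. They are from the GENCODE v44lift37 annotation on GRCh37, with the exons lying within chr4:70896458-70898937 for HTN3 (transcript HTN3-204) and chr4:70918794-70921286 for HTN1 (transcript HTN1-201). Capitals mark bases that are not identical in the alignment of the pair.
HTN3: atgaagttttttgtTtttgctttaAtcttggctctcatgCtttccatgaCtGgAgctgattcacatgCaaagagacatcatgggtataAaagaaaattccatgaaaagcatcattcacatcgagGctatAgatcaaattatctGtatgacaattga
HTN1: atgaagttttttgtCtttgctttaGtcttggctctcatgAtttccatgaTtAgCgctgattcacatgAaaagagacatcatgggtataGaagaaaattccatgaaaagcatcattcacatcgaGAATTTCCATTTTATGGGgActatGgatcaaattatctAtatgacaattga

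HTN3 has 51 codons before its stop and HTN1 has 57, and 145 of 156 aligned coding bases (92.9%) were identical. No window of 100 bases, the read length, was shared between the annotated transcripts of HTN3 (0 of 2126 windows) and HTN1 (0 of 3875 windows), and the longest shared run was 68 bases. Shorter aligned stretches of a read could still fall in such a run, so the split of counts between the pair is less certain than their sum.

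HTN3 (ENSG00000205649.3) was close to silent in WT cells and clearly read in ARID1A-KO cells. Its counts were 24, 18 and 12 in WT replicates 3, 4 and 5, and 555, 401 and 1525 in ARID1A-KO replicates 3, 4 and 5. All 3 ARID1A-KO samples lay above all 3 WT samples, and ARID1A-KO replicate 5 was the highest. In CPM, counts scaled to library size, the level was 0.273 ± 0.0786 (SD, n = 3) in WT and 10.9 ± 5.56 (SD, n = 3) in ARID1A-KO cells, a log2 fold change of 5.31 ± 0.41 (SE), or 39.6-fold. Among 19599 genes with enough counts to be tested, this was the 25th largest increase. In bulk samples, more cells that use a gene and more RNA per cell cannot be told apart.

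HTN1 (ENSG00000126550.4) was likewise close to silent in WT cells and read in ARID1A-KO cells, with fewer counts than HTN3 in each ARID1A-KO sample. Its counts were 15, 4 and 15 in the WT replicates and 203, 164 and 710 in the ARID1A-KO replicates. The genotypes again did not overlap, and ARID1A-KO replicate 5 was again the highest sample. The CPM was 0.180 ± 0.108 (SD, n = 3) in WT and 4.68 ± 2.94 (SD, n = 3) in ARID1A-KO cells, a log2 fold change of 4.74 ± 0.56 (SE), or 26.7-fold, the 37th largest increase. Over all genes tested, 24.8% had CPM values that were higher in ARID1A-KO cells without overlap, and nothing is read from the histatins being among them because this contrast chose them. HTN1, with 4 counts in WT replicate 4, passed the filter on low counts only through the ARID1A-KO samples.

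ARID1A-KO replicate 5 weighed on both values. Without it, the log2 fold change was 4.80 for HTN3 and 4.08 for HTN1. This sample stood apart from the other ARID1A-KO samples more widely, since 262 tested genes (1.34%) were over 2-fold above both of them, compared with 12 genes for replicate 3 and 14 for replicate 4. Its part in the histatin levels beyond these values was not tested.

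**Figure D1:**
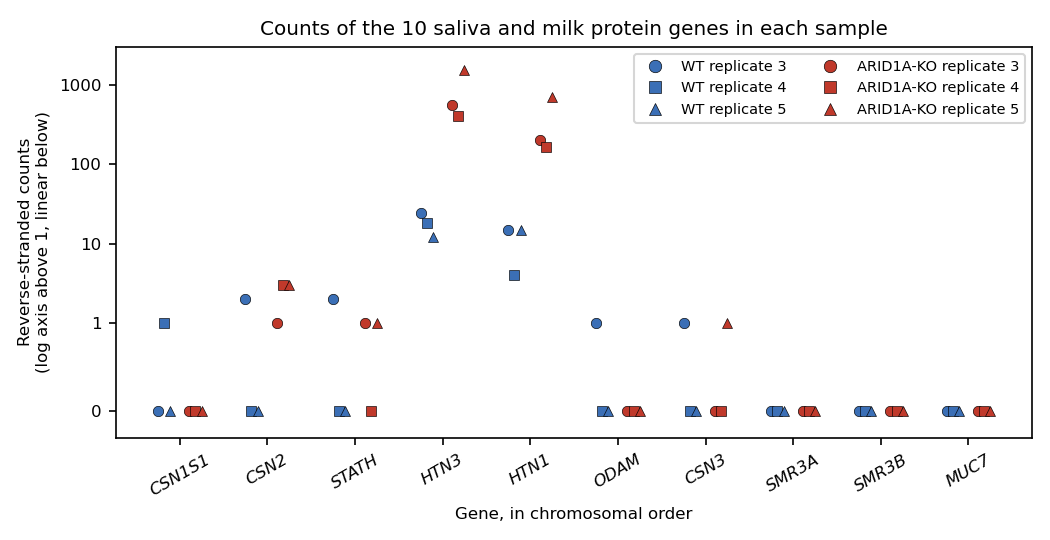
Counts on the gene's own strand (log axis above 1, linear below) of the 10 genes in each of the 3 WT and 3 ARID1A-KO samples, 1 point per sample, with genes in chromosomal order. HTN3 reached 401 to 1525 counts and HTN1 164 to 710 counts in ARID1A-KO cells, while no other gene exceeded 3 counts in any sample.

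Levels of the pair per length depend on the gene length used, which in the deposited tables was 2077 bases for HTN3 and 3817 bases for HTN1. The HTN1 length includes a retained-intron transcript of 3723 bases, whereas the coding HTN1-201 transcript has 547 bases. In TPM, counts scaled to gene length and library size, HTN3 stood at 0.576, 0.399 and 0.323 in the WT replicates and at 12.4, 11.5 and 28.3 in the ARID1A-KO replicates, and HTN1 at 0.196, 0.048 and 0.220 and at 2.46, 2.56 and 7.16. On this scale HTN3 was the higher in every sample, by a ratio of 3.95 to 5.02 in ARID1A-KO cells and of 1.47 to 8.27 in WT cells, where each gene had 24 counts or fewer. With the lengths of HTN3-204 (775 bases) and HTN1-201 instead, an alternative chosen after seeing the data, the ratio was 1.52 to 1.93 in ARID1A-KO cells. In WT cells it was 0.565 to 3.18, with HTN1 the higher in WT replicate 5.

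Set against the other tested genes, the mean TPM of HTN3 moved from 0.433, above 9.10% of them, to 17.4, above 63.4% of them. HTN1 moved from 0.155, above 2.69%, to 4.06, above 38.0%. These places also depend on length. Rescaled to the coding transcripts, the WT levels were 1.16 TPM for HTN3, above 19.7% of tested genes, and 1.08 TPM for HTN1, above 18.7%. The rescaled ARID1A-KO levels were 46.6 TPM for HTN3, above 82.6% of tested genes, and 28.3 TPM for HTN1, above 73.4%. Only the pair was rescaled, with all of its counts, while the other genes kept their exonic lengths. These rescaled places therefore compare unlike lengths. In ARID1A-KO cells HTN3 stood above the median tested gene with either length. HTN1 stood below it with the deposited length, and its place with coding lengths for every gene was not measured. Counted together as 1 gene, the pair had 39, 22 and 27 counts in WT and 758, 565 and 2235 counts in ARID1A-KO cells, with a log2 fold change of 5.11 ± 0.42 (SE), a value that does not depend on how reads were split between them.

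The other 8 genes of the cluster were not read above 3 counts in any sample of either genotype. Together they had 7 counts over the WT samples and 10 over the ARID1A-KO samples, and none could be tested. MUC7 and the submaxillary gland androgen-regulated genes SMR3A and SMR3B were at 0 in all 6 samples. A count of 0 allows up to 3 counts, which is 0.0341 to 0.0546 CPM at these depths and covers counting error only.

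CSN2, the gene of beta-casein, had the most of the 8, with counts of 2, 0 and 0 in WT and 1, 3 and 3 in ARID1A-KO cells. STATH, the nearest member to HTN3 after HTN1, had 2, 0 and 0 counts in WT and 1, 0 and 1 in ARID1A-KO cells. These samples overlapped, and at this depth no difference was detectable for either gene. CSN3 (kappa-casein) had 1 count in WT replicate 3 and 1 in ARID1A-KO replicate 5, whereas CSN1S1 (alpha-s1-casein) and ODAM, an enamel-associated protein of the junctional epithelium of the gum, had 1 count each over all 6 samples. STATH shares the TTTAAATA run shown above with both histatins, but its counts stayed at the floor.

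Reads on the opposite strand were absent at the histatins, with 0 counts in all 6 samples for HTN1 and for HTN3. CSN3 was different. It had 3, 5 and 8 opposite-strand counts in the WT replicates and 0 in each ARID1A-KO replicate, so counting without regard to strand would give it 4, 5 and 8 counts against 0, 0 and 1. These reads cannot be assigned to CSN3 and are too few to test.

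The genes around the cluster moved in both directions, and few of them could be tested. Of 60 other genes within 1 Mb of the cluster's ends, 10 could be tested, and at an adjusted p under 0.05 (Benjamini-Hochberg, edgeR's quasi-likelihood test) 1 was higher, 3 were lower and 6 did not pass. Over all genes tested, 36.2% passed, 17.8% higher and 18.4% lower. The median log2 fold change of the 10 neighbours was -0.13, against 0.0066 over all genes tested. Within 5 Mb, 5 of 37 tested genes were higher and 7 lower, with a median of -0.037.

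The nearest tested gene on the left, SULT1B1 (ENSG00000173597.4), moved the opposite way. SULT1B1 encodes a cytosolic sulfotransferase that acts on thyroid hormones and small phenols, and it lies on the reverse strand at chr4:70586880-70653679, 240450 bp from HTN3. Its counts were 213, 949 and 752 in WT and 20, 9 and 18 in ARID1A-KO cells, with WT replicate 3 the lowest of its group and no overlap between genotypes. SULT1B1 fell from 9.83 ± 5.75 CPM (SD, n = 3) to 0.221 ± 0.0665 CPM (SD, n = 3), 43.8-fold, with a log2 fold change of -5.45 ± 0.59 (SE) and an adjusted p of 0.00013 by edgeR's quasi-likelihood test.

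The nearest tested gene on the right, AMTN (ENSG00000187689.5), fell too. AMTN encodes amelotin, an SCPP family protein of maturing enamel, and lies on the forward strand at chr4:71384257-71398459, 35542 bp beyond MUC7. Its counts were 882, 731 and 470 in WT and 94, 65 and 509 in ARID1A-KO cells. No CPM value overlapped, though ARID1A-KO replicate 5, at 5.78 CPM, was near the lowest WT sample at 8.08 CPM. The means were 10.5 ± 2.58 and 2.78 ± 2.60 CPM (SD, n = 3 each), a log2 fold change of -1.88 ± 0.51 (SE) with an edgeR adjusted p of 0.0176. The call was lost without WT replicate 3 (edgeR adjusted p = 0.0614), without ARID1A-KO replicate 3 (0.0511) and with robust dispersion estimates (0.084), and without ARID1A-KO replicate 5 the log2 fold change was -3.03.

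ENAM, the gene of enamelin and a near neighbour of AMTN, had 111, 71 and 93 counts in WT and 79, 64 and 176 in ARID1A-KO cells. Its samples overlapped, and its log2 fold change of 0.04 ± 0.27 (SE) did not pass (edgeR adjusted p = 0.926). Without WT replicate 4 it was -0.16 and without ARID1A-KO replicate 5 it was -0.28. Farther out, the Hippo pathway kinase activator MOB1B rose from 61.6 ± 6.52 to 78.8 ± 2.89 CPM (SD, n = 3 each; log2 fold change 0.35, edgeR adjusted p = 0.00841), and the sodium bicarbonate cotransporter SLC4A4 fell by 0.74 on the log2 scale (edgeR adjusted p = 0.0168), a call lost without WT replicate 5 (0.0505). DCK, UTP3, RUFY3, GRSF1 and RP11-46J23.1, with log2 fold changes between -0.34 and 0.20, did not pass.

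**Figure D2:**
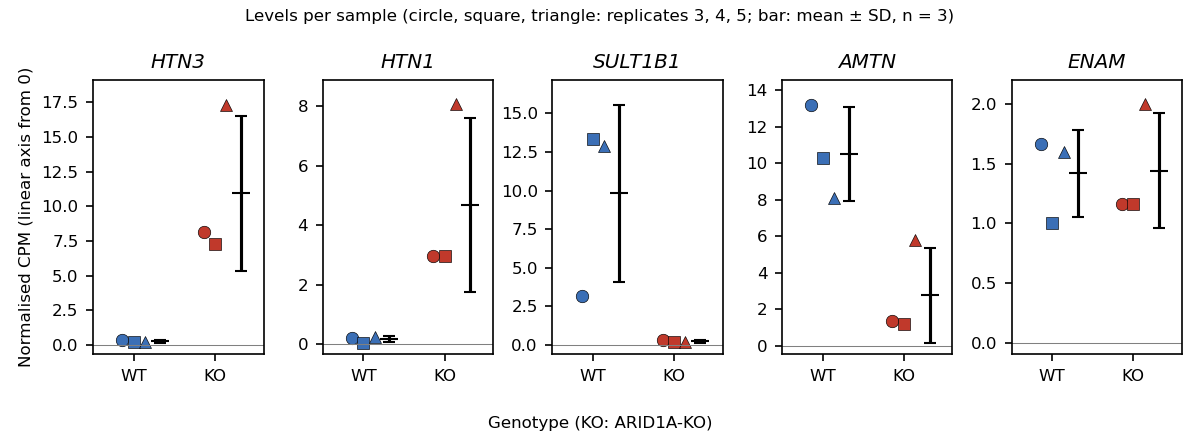
CPM (linear axis from 0, a separate scale for each gene) of HTN3, HTN1, SULT1B1, AMTN and ENAM in the 3 WT and 3 ARID1A-KO samples, with points for samples and bars for the mean ± SD. The genotypes are apart for HTN3 and HTN1, higher in ARID1A-KO cells, and for SULT1B1 and AMTN, lower in ARID1A-KO cells, while those of ENAM overlap.

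**Figure D3:**
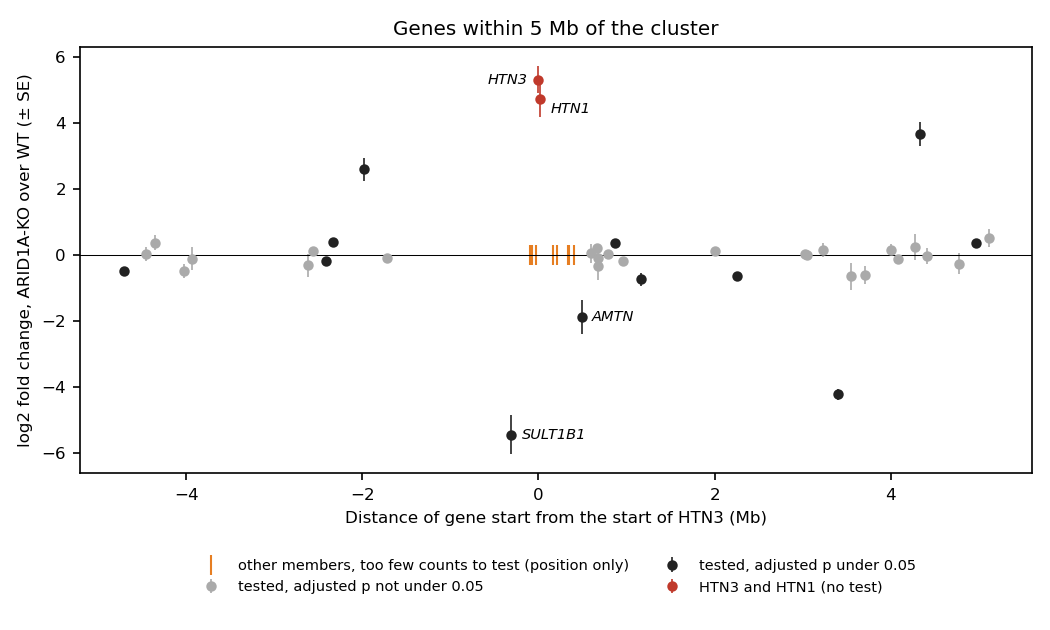
Log2 fold change (ARID1A-KO over WT, ± SE) of tested genes against the distance of the gene's start from the start of HTN3 in Mb, with ticks at 0 for the members with too few counts. HTN3 at 5.31 and HTN1 at 4.74 stand above the flanking genes SULT1B1 at -5.45 and AMTN at -1.88. Most other genes lie near 0, but genes farther out reach -4.24 and 3.67.

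Further genes in and beside the cluster numbered 10 in the table, including those for follicular dendritic cell secreted peptide and the immunoglobulin J chain. Only SULT1B1, AMTN and ENAM, already described as neighbours, could be tested. Ameloblastin (AMBN) had 11 counts over the WT samples and 6 over the ARID1A-KO samples, IGJ had 10 and 8, and the estrogen sulfotransferase SULT1E1 had 4 and 5. The remaining genes, PROL1, CABS1, FDCSP and CSN1S2AP, had no more than 2 counts over the samples of a genotype. The low counts of the other members were thus shared by most of the genes among and around them.

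The counts of called genes in the lists that follow stand beside 36.2% called over all genes tested, 17.8% higher and 18.4% lower. SCPP genes outside the cluster went both ways. Of 8 bone and tooth SCPP genes in the table, 3 were tested by edgeR's quasi-likelihood test, of which 1 rose and 2 fell (median log2 fold change -0.89). DMP1, a dentin and bone matrix protein, rose from a few counts (7, 7 and 6 in WT, 18, 12 and 33 in ARID1A-KO cells; 2.83-fold, edgeR adjusted p = 0.0083), a call that DESeq2 did not give (adjusted p = 0.0504). DMP1 passed the filter on low counts only through the ARID1A-KO samples, so it could hardly have been called lower. Osteopontin (SPP1) fell by 1.45 (edgeR adjusted p = 0.00222) and the collagen-binding matrix protein SPARC fell by 0.89 on the log2 scale.

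Saliva protein genes elsewhere in the genome went both ways. Of 32 in the table, 9 could be tested, and 2 rose, 2 fell and 5 did not pass (median log2 fold change -0.041). The salivary proline-rich protein gene PRB1 had 5, 9 and 7 counts in WT and 30, 25 and 26 in ARID1A-KO cells (log2 fold change 1.85, edgeR adjusted p = 0.00272), and it belongs to a family of near-identical genes, so the origin of its reads is uncertain. The lactoperoxidase gene LPO rose by a log2 fold change of 1.84 (edgeR adjusted p = 0.0122) at 2 to 21 counts per sample, beside 362 to 576 counts on the opposite strand. Both PRB1 and LPO passed the filter on low counts only through the ARID1A-KO samples, so they could hardly have been called lower. The iron-binding protein lactotransferrin (LTF) fell by 1.07 (edgeR adjusted p = 0.0045) and the mucosal scavenger receptor gene DMBT1 fell by 0.81 on the log2 scale (edgeR adjusted p = 0.0037). AMY1A, AMY1B, AMY1C, PRH1, PIP, BPIFB1 and CA6 were at 0 in all samples, salivary amylase among them.

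Milk and lactation genes were likewise split, with 3 of 7 tested genes higher and 2 lower (median log2 fold change -0.19). OLAH, which releases medium-chain fatty acids during milk fat synthesis, rose by a log2 fold change of 1.40 (edgeR adjusted p = 0.00189). The progestagen-associated lipocalin gene PAEP rose by a log2 fold change of 1.19 (edgeR adjusted p = 0.0186), a call lost without WT replicate 5 (0.0613), and the parathyroid hormone-like hormone gene PTHLH by 0.51 (0.0108). The milk fat globule genes XDH and PLIN2 fell by 1.04 and 1.01. Alpha-lactalbumin (LALBA), the major whey protein, had 0 counts in WT and 2 in ARID1A-KO cells, and GLYCAM1 had none.

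Of 20 regulators known for casein or secretory genes, 18 were tested, and 3 were higher, 5 lower and 10 not called (median log2 fold change -0.045). The prolactin receptor PRLR, which starts the signal for casein transcription, fell by 3.03 (edgeR adjusted p = 3.58e-05), and its kinase JAK2 fell by 0.82 on the log2 scale. NFIB, a nuclear factor I protein that binds milk protein gene promoters, fell by 2.19 (edgeR adjusted p = 9.06e-07). The homeobox factor DLX3 rose by a log2 fold change of 1.51 (edgeR adjusted p = 0.0032). BHLHA15, which organises secretory cells, and the leucine zipper factor CEBPB had log2 fold changes of 0.96 and 0.45 (edgeR adjusted p = 0.0184 for each). Both calls were lost without WT replicate 3, WT replicate 5 or ARID1A-KO replicate 4, with the adjusted p at most 0.0723, and that of BHLHA15 also without ARID1A-KO replicate 5 (0.0537).

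**Figure D4:**
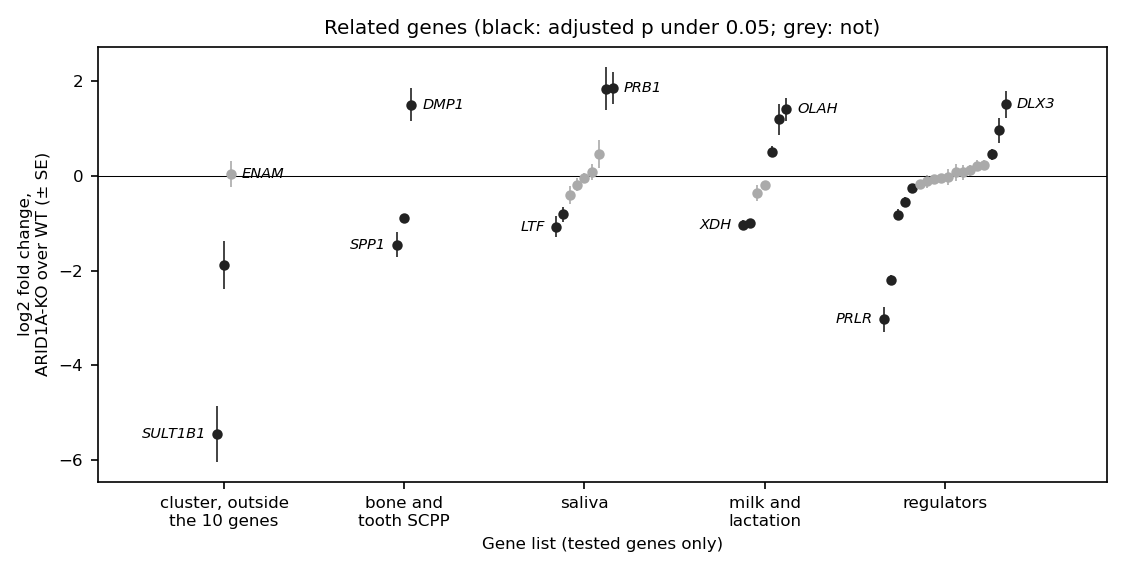
Log2 fold change (ARID1A-KO over WT, ± SE) of each tested gene in 5 lists of related genes, with black points for adjusted p under 0.05 by edgeR's quasi-likelihood test. Every list but that of the cluster has called genes on both sides of 0, from PRLR at -3.03 to PRB1 at 1.85. The cluster list leaves out the members, HTN3 and HTN1 among them, and its tested genes lie at 0.04 or below.

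Markers of the tissues in which these genes are usually read were compared as lists. Of 14 salivary acinar markers, 4 were tested and 3 rose, PRB1, LPO and BHLHA15. Over all genes tested 17.8% were higher, but PRB1 and LPO passed the filter on low counts only through the ARID1A-KO samples. Genes that enter this way can hardly be called lower, so nothing is read from the comparison. The reads of PRB1 are of uncertain origin, LPO had few counts, and the call of BHLHA15 was lost when single samples were left out. The summed level of the 14 markers was 2.38 to 3.40 TPM in WT and 4.14 to 6.48 TPM in ARID1A-KO cells. Most of it was the regulator BHLHA15, the only 1 of the 14 with a mean above 1 TPM in either genotype. In every sample 5 of the 14 were at 0, the 3 AMY1 genes, CA6 and PIP. Lactating mammary markers summed to 28.1 to 35.1 TPM in WT and 31.1 to 37.7 TPM in ARID1A-KO cells, with 1 of 4 tested genes higher and 2 lower. Ameloblast markers summed to 26.4 to 43.3 TPM in WT and 5.11 to 21.0 TPM in ARID1A-KO cells, most of it AMTN. Within that list the enamel protease gene KLK4 had 1, 0 and 1 counts in WT and 25, 26 and 49 in ARID1A-KO cells (edgeR adjusted p = 9.48e-05). KLK4 passed the filter on low counts only through the ARID1A-KO samples and could hardly have been called lower, so nothing is read from its call.

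The cell line was checked against markers of its lineage. Of 11 osteoblast lineage genes, 7 had a mean above 1 TPM in each genotype, and of 8 tested 1 was higher and 5 lower. The summed level of the list was 733 to 773 TPM in WT and 403 to 450 TPM in ARID1A-KO cells. Most of it was SPARC, with means of 515 TPM in WT and 277 TPM in ARID1A-KO cells. Epithelial markers summed to 653 to 749 TPM in WT and 442 to 498 TPM in ARID1A-KO cells, with 1 of 8 tested genes higher (EPCAM, a call lost without WT replicate 4, WT replicate 5, ARID1A-KO replicate 3 or ARID1A-KO replicate 4) and 5 lower. The part of these differences in the histatin levels was not tested. ARID1A itself had 11054, 12620 and 10278 counts in WT and 1709, 1513 and 2215 in ARID1A-KO cells, a log2 fold change of -2.74 ± 0.07 (SE; edgeR adjusted p = 9.66e-08).

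The patterns across the 6 samples most like that of HTN3, by Pearson's r of log2 CPM, were those of GATAD1 (0.999), EIF4EBP2 (0.999) and ATP6V0B (0.998). For HTN1 they were ANO4, C11orf71 and SLC18A2, each at 0.999. The points were 3 samples of each genotype, so r mostly reflected the difference between genotypes and the higher value of ARID1A-KO replicate 5. Of 13081 genes compared, 681 (5.21%) had an r above 0.95 with HTN3 and 465 (3.55%) with HTN1. The likeness was in shape and not in size, since GATAD1 had a log2 fold change of 0.44 and ANO4 of 0.72.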

How the data were processed

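RNA was measured in 3 WT and 3 ARID1A-KO samples of AID-DIvA cells. The labels name polyA RNA, whereas the protocol names a stranded total RNA library kit, with 100 bp paired-end reads. The authors aligned the reads to GRCh37 with STAR and deposited raw counts per gene from featureCounts, without regard to strand and for each strand. They also deposited TPM values, which divide by exonic length. The methods name the annotation as v29lift37, which the deposited identifiers were not checked against; software versions are not given in the sources used here. Counts on the reverse strand were used, with 54512105 to 84088708 per sample, and the opposite strand held 5.83 to 6.15% as many. FPKM columns were not used here. Groups came from the labels.

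The 10 members and all gene lists were chosen with earlier results of these data known. Members were given no test. Other genes were fitted with all 6 samples in edgeR 4.0.16 (R 4.3.3; filterByExpr, TMM, quasi-likelihood test, Benjamini-Hochberg adjusted p under 0.05), which kept 19599 genes; CPM used the TMM-scaled library sizes, and the fit was tested on simulated data. DESeq2 1.42.0 was an alternative. Named genes were the members, ARID1A, genes of the cluster with a count, the 10 nearest tested genes within 1 Mb, at most 3 called genes higher and 3 lower per list with the largest changes, defining genes at 0, and the 3 genes most correlated with each histatin; LPO's opposite-strand counts were looked up after its values were seen. No 2 libraries of a genotype agreed within sampling noise. Sequences were read from RefSeq (GRCh38.p14) and GENCODE v44lift37 with Biopython 1.88.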

Additional observations from a re-analysis of the deposited data

How the results depend on the processing

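HTN3 and HTN1 stayed higher in ARID1A-KO cells in every setting that could be run. Leaving out each sample in turn gave log2 fold changes of 4.80 to 5.55 for HTN3 and 4.08 to 5.07 for HTN1, and deposited TPM values gave 5.33 and 4.71. With at least 10 counts in every sample HTN1 could not be fitted, since WT replicate 4 had 4 counts. Of 284 alternative values over 25 results, 251 kept their direction and call, stayed within the spread or, for numbers of genes called, stayed within a set fold of the main number. By that last rule, 5285 genes called without ARID1A-KO replicate 4, against 7099 with all samples, counted as kept. At adjusted p under 0.01, 4414 genes were called over all genes, 2 within 1 Mb, 1 of the cluster's other genes, 3 milk genes and 5 regulators. Requiring 10 counts in every sample left 1 of the cluster's other genes and 2 saliva genes, and robust dispersion estimates, an alternative chosen after seeing the data, left 1 of the cluster's other genes. The median around the cluster was -0.034 with at least 10 counts, -0.34 with no filter, -0.037 within 5 Mb and -0.032 within 10 Mb.

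Over samples left out in turn, 5285 to 7050 genes were called over all genes, 3 to 6 within 1 Mb, 1 to 2 of the cluster's other genes (1 without WT replicate 3 or ARID1A-KO replicate 3) and 5 to 7 regulators (5 without WT replicate 3 or ARID1A-KO replicate 4), with the median around the cluster from -0.24 (without ARID1A-KO replicate 5) to -0.054. ENAM turned to -0.16 without WT replicate 4 and to -0.28 without ARID1A-KO replicate 5, and RP11-46J23.1 ranged from -0.57 to 0.012, positive without ARID1A-KO replicate 3. UTP3 and DCK passed the threshold under 2 and 4 alternatives. The causes were not tested. Deviations of same-numbered samples correlated at -0.177, 0.268 and 0.180, and those of other-numbered samples at -0.420 to 0.295. With so few samples, these values do not settle whether replicate numbers pair the samples. With the replicate block, 7477 genes were called, HTN3 was at 5.20 and HTN1 at 4.66. Counts of 0 to 3 limit what can be said of the other 8 members.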
